A study of Homo sapiens with 14 samples.

Results

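The hypoxia response and glycolysis genes described here are 37 genes chosen by symbol, and all 37 were found both in the DU145 table (24199 features) and in the LNCaP table (44591 genes). They comprise 5 oxygen sensing genes and subunits of the hypoxia-inducible factor (HIF), 3 secreted factors, 3 enzymes of collagen modification, 3 genes of acid handling, 3 mitophagy and other HIF targets, 4 genes of glucose uptake and its regulation, 15 glycolytic enzymes and 1 pyruvate dehydrogenase kinase.

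The RNA-seq libraries came from 2 human prostate cancer cell lines. DU145 is a line grown in DMEM with serum, and 3 shCON libraries (genotype WT, a non-target short hairpin RNA) were compared with 3 shPAX6 libraries (genotype PAX6 knockdown), all from stable lentiviral lines. PAX6 is a transcription factor of eye and brain development. LNCaP is a line grown in RPMI-1640 with serum, and 1 parental library was compared with 1 LNCaP-ENZ library, an enzalutamide resistant line held in 20 µM enzalutamide for 30 days. The protocols give ordinary incubation in air with CO2 for all cells and name no hypoxic culture. The labels do not say which hairpin was used in each shPAX6 library, nor whether replicates were separate cultures, so that p-values then measure only the spread between these samples, which may be technical.

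HIF is a dimer of an oxygen-labile alpha subunit, encoded by HIF1A or EPAS1, and a stable beta subunit encoded by ARNT. In air, prolyl hydroxylases of the EGLN family mark the alpha subunit for degradation, so that HIF activity is set largely at the protein level and is not read from the mRNA of HIF1A. At low oxygen the dimer binds the core letters ACGTG or GCGTG near its targets, which raise glucose uptake and glycolysis, vessel growth, acid export and mitophagy. ADM, which encodes the vasodilator peptide adrenomedullin, is a known target of HIF.

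The windows upstream of 4 genes are printed because the results turn on ADM, LOX and EPAS1, and because LDHA, lactate dehydrogenase A, is a textbook HIF target whose level can be set beside theirs. Each is the 250 bases before the RefSeq start (GRCh38.p14 table), 5′ to 3′ on the gene's strand, with matches to the HIF core ACGTG or GCGTG on either strand in capitals (on the other strand these read CACGT and CACGC, and 2 matches of ACGTG overlap in CACGTG). By exact match in GRCh37 the windows lie at chr11:10326370-10326619 (plus strand), chr5:121413955-121414204 (minus strand), chr2:46524296-46524545 (plus strand) and chr11:18415860-18416109 (plus strand). For LOX and EPAS1 the RefSeq start differs from the gene coordinates printed further on, while for ADM it is the same. The EPAS1 window lies inside those coordinates, and part of the LOX window does.
ADM: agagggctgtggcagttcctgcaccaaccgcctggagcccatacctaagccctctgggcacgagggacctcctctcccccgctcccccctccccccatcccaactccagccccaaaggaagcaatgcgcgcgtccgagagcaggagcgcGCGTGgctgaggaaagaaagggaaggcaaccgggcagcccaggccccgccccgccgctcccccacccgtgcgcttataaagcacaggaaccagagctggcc
LOX: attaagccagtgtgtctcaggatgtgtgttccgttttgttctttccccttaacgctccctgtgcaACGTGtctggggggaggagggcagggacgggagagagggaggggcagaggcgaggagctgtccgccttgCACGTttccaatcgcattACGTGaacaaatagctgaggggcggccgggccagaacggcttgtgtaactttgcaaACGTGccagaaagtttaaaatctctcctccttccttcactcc
EPAS1: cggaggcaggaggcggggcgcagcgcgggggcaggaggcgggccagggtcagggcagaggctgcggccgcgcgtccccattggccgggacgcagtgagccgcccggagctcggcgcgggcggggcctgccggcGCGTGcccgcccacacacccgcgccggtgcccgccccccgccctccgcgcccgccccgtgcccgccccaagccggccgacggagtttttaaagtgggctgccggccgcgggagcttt
LDHA: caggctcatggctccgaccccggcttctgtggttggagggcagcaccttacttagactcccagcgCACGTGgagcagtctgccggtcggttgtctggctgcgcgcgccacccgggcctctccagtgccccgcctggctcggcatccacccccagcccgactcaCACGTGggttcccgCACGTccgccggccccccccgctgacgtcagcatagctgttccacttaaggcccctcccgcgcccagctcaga
The ADM and EPAS1 windows each held 1 GCGTG and no ACGTG, the LOX window held 4 ACGTG and the LDHA window 5. Of the 34 members with a RefSeq window, 23 (67.6%) held at least 1 of the cores, against 43.2% of all 35116 windows and 49.3% of the 22199 windows of protein-coding genes. For ACGTG alone the share was 44.1% of the members, 18.5% of all windows and 20.2% of those of protein-coding genes. GCGTG, the only core in the ADM and EPAS1 windows, was in 12 of the 34 members. That is close to its share of all windows (32.2%) and of those of protein-coding genes (38.3%). A match of so few letters is a description of the window, not a binding site.

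The targeted gene and the libraries were examined first. PAX6 was at 0.839, 1.23 and 1.57 FPKM (fragments per kilobase of transcript, scaled to the size of the library) in the shCON libraries and at 0.0153, 0.274 and 0.0778 FPKM in the shPAX6 libraries, so that the groups did not overlap (log2 fold change -2.69, limma, adjusted p = 0.054). It was called without shPAX6 replicate 1 (limma, adjusted p = 0.022) or shPAX6 replicate 2 (0.010) and with a pseudocount of 1 FPKM (0.039). Leaving out a shCON library (0.20 to 0.33) or shPAX6 replicate 3 (0.22) gave no call. In LNCaP, PAX6 had 11 counts in the parental and 4 in the LNCaP-ENZ library. The shPAX6 libraries were less alike (r of log2 values across features down to 0.930) than the shCON libraries (0.986 or above), and shPAX6 1 and shPAX6 2 deviated in opposite directions with GC content and transcript length. KRT8 and KRT18 marked both lines as epithelial, KLK3, the prostate-specific antigen gene, was at or below 0.058 FPKM in every DU145 library and had 1817 and 1186 counts in LNCaP, and the summed level of 5 leukocyte, 5 fibroblast and 5 endothelial markers stayed at or below 0.922, 0.741 and 0.137 FPKM in DU145. PTPRC, DCN and COL1A2 were at 0 in all 6 DU145 libraries, and CDH1 was called lower in shPAX6 (log2 fold change -2.28, limma, adjusted p = 0.033).

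PAX6 knockdown in DU145 came with a higher level of ADM, the adrenomedullin gene, and of LOX, the lysyl oxidase that cross-links collagen, while EPAS1 was 3.33-fold lower on the fitted scale without passing the test and the glycolytic enzymes showed no called change. Of the 37 members 35 reached the mean of 0.5 FPKM needed for testing, and CA9 and SLC2A3 did not. By limma on log2(FPKM + 0.1) over 13574 features, 2 of the 35 members were called at an adjusted p under 0.05, both higher (ADM and LOX), where 1.2% of all tested features were called, 0.177% higher and 1.02% lower. At an unadjusted p under 0.05 there were 11 of 35 members, against 18.3% of all features. In 13 members the groups did not overlap (37.1% of those tested, 7 higher and 6 lower), against 26.7% of all features (6.7% higher, 20.0% lower). By fold change alone 21 members were higher and 14 lower, with a median of 0.08 (log2), whereas 37.1% of all features were higher and their median was -0.12. The median over all features moved to 0.01 with quantile normalization and to 0.06 with median centring, and in these bulk libraries fewer cells of a kind and less RNA per cell cannot be told apart.

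**Figure D1:**
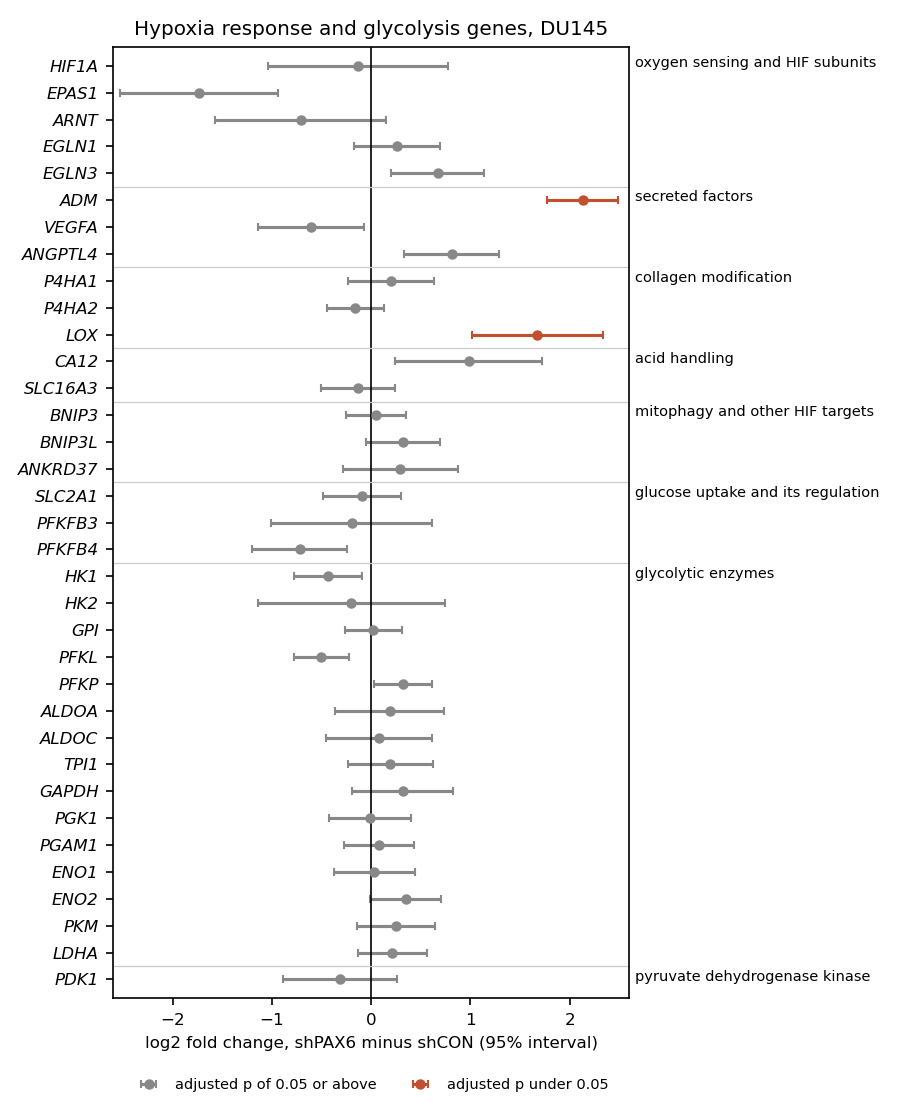
Log2 fold change (shPAX6 minus shCON, limma, 3 libraries a group) of the 35 tested hypoxia response and glycolysis genes in DU145, one row per gene ordered by role, with 95% intervals. ADM (2.13) and LOX (1.67), in red, are the called genes and EPAS1 (-1.74) has the lowest value, while the glycolytic enzymes lie between -0.50 and 0.35.

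Of the secreted factors, ADM (chr11:10326620-10328944, plus strand, GRCh37) separated most clearly. It was at 4.73, 5.80 and 5.06 FPKM in the shCON libraries and at 25.8, 21.6 and 21.8 FPKM in the shPAX6 libraries. Every shPAX6 library was above every shCON library, with a gap much wider than the spread inside either group. The means were 5.20 ± 0.55 and 23.1 ± 2.37 FPKM (SD, n = 3 each), a rise of 4.37-fold on the fitted scale of log2 values (log2 fold change 2.13, SE 0.16, limma, adjusted p = 0.0032; exact permutation p = 0.10, the smallest that 3 against 3 allows). The call was lost without shCON replicate 1 (limma, adjusted p = 0.052) or shCON replicate 3 (0.074), while the log2 fold change stayed between 2.05 and 2.21 whichever library was left out.

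ANGPTL4, an inhibitor of lipoprotein lipase, and VEGFA, the angiogenic growth factor, were the other secreted HIF targets, and neither was called. ANGPTL4 was at 6.13, 8.07 and 7.77 FPKM in shCON and at 15.9, 10.4 and 12.7 FPKM in shPAX6. The groups did not overlap and the fitted fold was 1.75 (log2 fold change 0.81, SE 0.20, limma, adjusted p = 0.10), a difference that was called after a GC correction per library (1.03, adjusted p = 0.020) and without shPAX6 replicate 2 (0.96, adjusted p = 0.033). Leaving out shPAX6 replicate 1 (limma, adjusted p = 0.061) or 3 (0.30) or any shCON library (0.34 to 0.40) gave no call. VEGFA lay on the other side, at 65.6, 59.5 and 63.3 FPKM in shCON and 28.4, 52.1 and 47.1 FPKM in shPAX6. Its groups did not overlap either (log2 fold change -0.61, SE 0.23, limma, adjusted p = 0.22). The ratio of ADM to VEGFA within a library, which no scaling of a library can alter, was 0.0721, 0.0974 and 0.0799 in shCON and 0.909, 0.414 and 0.463 in shPAX6. With ADM higher and VEGFA lower in every shPAX6 library, this ratio had to separate the groups. It is a description and no further test.

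**Figure D2:**
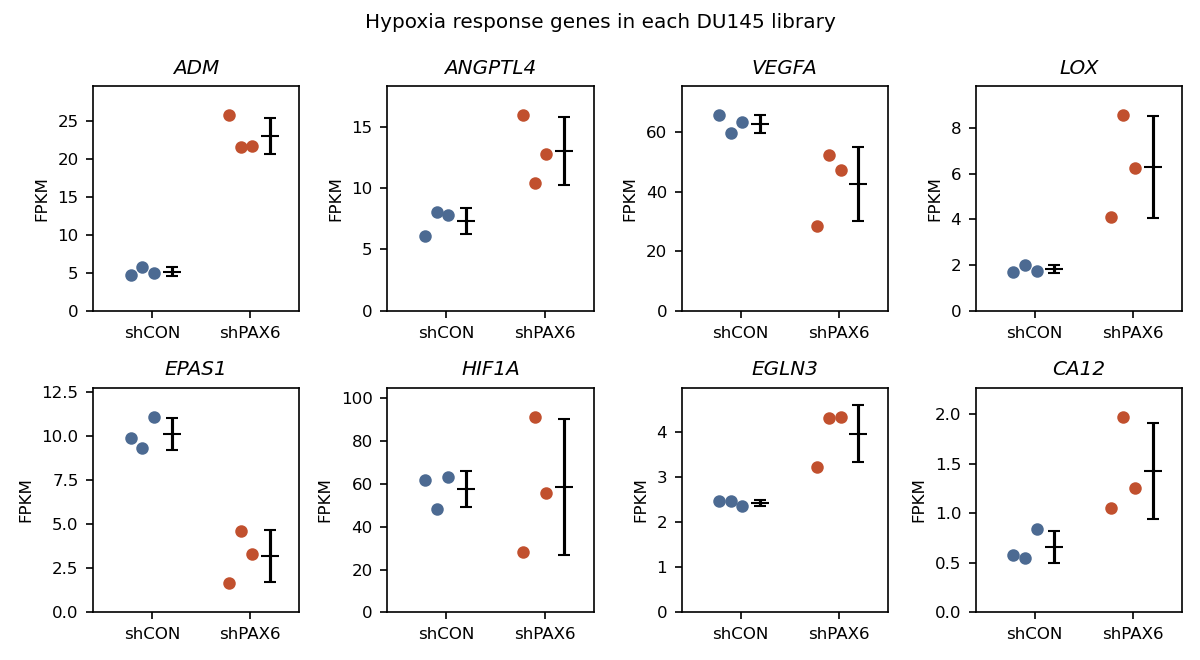
FPKM of 8 hypoxia response genes in each DU145 library (points, replicates 1 to 3 from left to right) with the mean and SD of each group (bars), on axes from 0. ADM, ANGPTL4, LOX, EGLN3 and CA12 lie higher in all shPAX6 libraries and EPAS1 and VEGFA lower, while HIF1A spreads from 28.0 to 91.3 FPKM within shPAX6.

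The alpha subunits of HIF differed from each other. EPAS1 (chr2:46520806-46613836, plus strand, GRCh37) was at 9.88, 9.34 and 11.1 FPKM in shCON and at 1.67, 4.60 and 3.31 FPKM in shPAX6. All shPAX6 libraries were below all shCON libraries, and shPAX6 1 was the lowest. The means were 10.1 ± 0.89 and 3.20 ± 1.47 FPKM (SD, n = 3 each), 3.33-fold lower on the fitted scale (log2 fold change -1.74, SE 0.34), which missed the threshold (limma, adjusted p = 0.062). EPAS1 was called with a pseudocount of 1 FPKM (adjusted p = 0.049), with quantile normalization (0.030) or median centring (0.048), and without shPAX6 replicate 1 (log2 fold change -1.35, adjusted p = 0.0085) or shPAX6 replicate 2 (-2.05, adjusted p = 0.012). It was not called without shCON replicate 1 (limma, adjusted p = 0.25), 2 (0.28) or 3 (0.35) or without shPAX6 replicate 3 (0.23). Nor was it called with no filter on low values (0.10), with replicate number as a block (0.19) or after the GC correction (-1.67, adjusted p = 0.085). HIF1A was at 62.0, 48.1 and 63.3 FPKM in shCON and at 28.0, 91.3 and 55.7 FPKM in shPAX6. These groups overlapped, with 1 shPAX6 library below and 1 above all controls (log2 fold change -0.13, SE 0.39, 95% interval -1.04 to 0.77, limma, adjusted p = 0.90). Exons of HIF1A overlap those of the antisense genes HIF1A-AS1 and HIF1A-AS3, and the sources used here do not say whether counting used strand.

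Although HIF1A varied widely among the shPAX6 libraries, its ratio to EPAS1 within each library varied less. HIF1A over EPAS1 was 6.27, 5.15 and 5.71 in the shCON libraries and 16.8, 19.8 and 16.8 in the shPAX6 libraries. The shPAX6 ratios were all above the shCON ratios, by 1.64 on the log2 scale (exact permutation p = 0.10, the smallest that 3 against 3 allows). With each library left out in turn the log2 difference (with the pseudocount) was 1.51 to 1.67, and it was 1.33 after the GC correction, the transcripts having 36.4% and 52.6% GC. ARNT, the shared beta subunit, was at 14.5, 11.8 and 16.6 FPKM in shCON and 4.88, 14.6 and 8.97 FPKM in shPAX6 (log2 fold change -0.71, limma, adjusted p = 0.36). Among the prolyl hydroxylases that mark the alpha subunits, EGLN3 was at 2.47, 2.47 and 2.36 FPKM in shCON and 3.23, 4.31 and 4.34 FPKM in shPAX6. Its groups did not overlap (log2 fold change 0.67, limma, adjusted p = 0.15), and it was called with quantile normalization (adjusted p = 0.045) and without shPAX6 replicate 1 (0.035). No call was made without shPAX6 replicate 2 (limma, adjusted p = 0.11) or 3 (0.41) or without any 1 shCON library (0.38 to 0.51). EGLN1 overlapped between groups, with means of 9.97 and 12.1 FPKM (limma, adjusted p = 0.53).

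**Figure D3:**
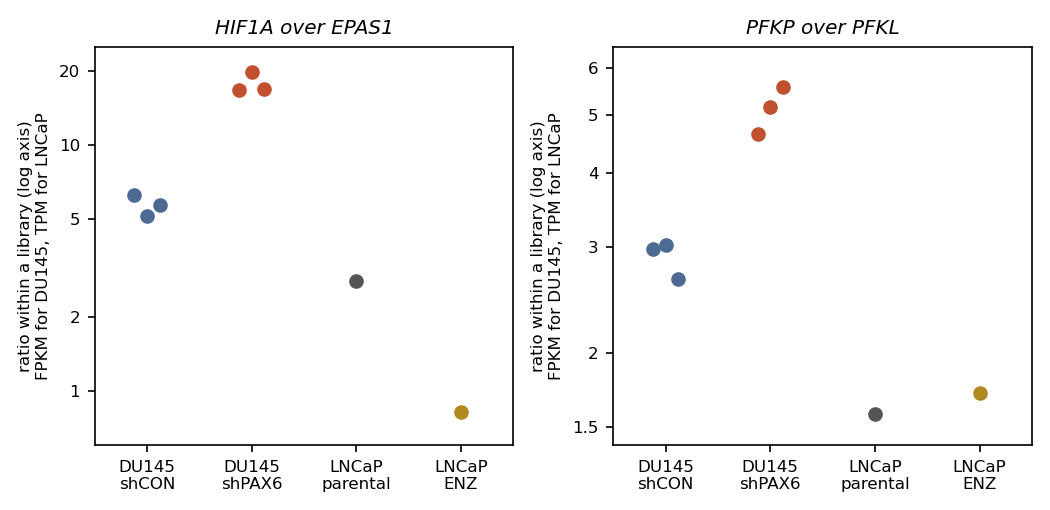
Ratio of HIF1A to EPAS1 and of PFKP to PFKL within each library on log axes, from FPKM for DU145 (3 libraries a group) and TPM (transcript counts scaled by length and library) for LNCaP (1 library an arm). Both ratios are higher in every shPAX6 library than in every shCON library, and HIF1A over EPAS1 is 2.78 in parental LNCaP and 0.821 in LNCaP-ENZ.

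Of the collagen-modifying enzymes, LOX (chr5:121398890-121414108, minus strand, GRCh37), whose exons overlap SRFBP1 on the opposite strand, was the other called member. It was at 1.71, 2.03 and 1.75 FPKM in shCON and at 4.10, 8.55 and 6.26 FPKM in shPAX6. Each shPAX6 library was above each control, and the shPAX6 libraries differed from one another by more than the controls did. The means were 1.83 ± 0.17 and 6.30 ± 2.23 FPKM (SD, n = 3 each), a rise of 3.19-fold on the fitted scale (log2 fold change 1.67, SE 0.28, limma, adjusted p = 0.043). This call was close to the threshold and was lost with no filter on low values (adjusted p = 0.072), without shCON replicate 1 (0.22), 2 (0.23) or 3 (0.29) and without shPAX6 replicate 3 (0.21), while the log2 fold change in these settings was 1.63 to 1.75. P4HA1 and P4HA2, the alpha subunits of collagen prolyl hydroxylase, were not called. Their log2 values differed by 0.20 (limma, adjusted p = 0.63) and -0.16 (limma, adjusted p = 0.55).

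The acid handling, mitophagy and glucose uptake genes held no called member. CA12, a membrane carbonic anhydrase, was low, at 0.585, 0.549 and 0.846 FPKM in shCON and 1.05, 1.98 and 1.26 FPKM in shPAX6, without overlap (log2 fold change 0.98, limma, adjusted p = 0.18). CA9, the carbonic anhydrase most often used as a hypoxia marker, did not exceed 0.352 FPKM in any DU145 library. SLC16A3, the lactate exporter, was at 226 ± 20.0 and 207 ± 32.1 FPKM (SD, n = 3 each; limma, adjusted p = 0.72). BNIP3 and BNIP3L, receptors of mitophagy, were at 96.2 ± 7.52 and 99.4 ± 7.88 FPKM (adjusted p = 0.89) and at 37.1 ± 3.15 and 46.5 ± 7.99 FPKM (limma, adjusted p = 0.35). ANKRD37, an ankyrin repeat protein, was at 2.11 ± 0.47 and 2.59 ± 0.44 FPKM (limma, adjusted p = 0.60). SLC2A1, the main glucose transporter, was at 77.3 ± 3.31 and 73.4 ± 14.5 FPKM (adjusted p = 0.83), and SLC2A3, the neuronal glucose transporter, did not exceed 0.109 FPKM. PFKFB3 and PFKFB4 make and break the fructose bisphosphate that activates phosphofructokinase. PFKFB4 was at 7.70, 6.84 and 8.44 FPKM in shCON and 3.59, 5.03 and 5.33 FPKM in shPAX6, without overlap (log2 fold change -0.72, limma, adjusted p = 0.13), while PFKFB3 overlapped, from 27.0 to 27.8 FPKM in shCON and 13.1 to 37.3 FPKM in shPAX6. PDK1, a kinase that inhibits pyruvate dehydrogenase, was at 2.70 ± 0.58 and 2.15 ± 0.40 FPKM (limma, adjusted p = 0.56).

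None of the 15 glycolytic enzymes was called in DU145 by limma. At an unadjusted p under 0.05 there were 3 of the 15, against 18.3% of all features. Their median log2 fold change was 0.08, with 11 higher and 4 lower by value alone. With quantile normalization 6 were higher and 9 lower, and with median centring 12 and 3, so that no common direction was kept across scalings. GAPDH, the most abundant member, was at 3652, 3945 and 3605 FPKM in shCON and 5756, 3721 and 4673 FPKM in shPAX6 (limma, adjusted p = 0.51), and 65 named pseudogenes of it are annotated, so its reads may be shared. The 95% interval of the log2 difference was -0.14 to 0.56 for LDHA, -0.43 to 0.40 for PGK1, phosphoglycerate kinase, and -0.38 to 0.45 for ENO1, the main enolase. ENO2, neuron-specific enolase and a marker of neuroendocrine cells, was at 22.5, 21.3 and 24.2 FPKM in shCON and 24.2, 30.6 and 32.4 FPKM in shPAX6 (log2 fold change 0.35, limma, adjusted p = 0.28). The groups did not overlap in 4 of the 15 enzymes, HK1, PFKL, PFKP and PKM, and in 26.7% of all features, so this count was no more than the background.

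The phosphofructokinases, which commit glucose to glycolysis, lay apart in opposite directions. PFKL, the liver isozyme, was at 65.5, 66.3 and 74.1 FPKM in shCON and 49.9, 46.4 and 48.9 FPKM in shPAX6 (log2 fold change -0.50, SE 0.12, limma, adjusted p = 0.091), and it was called without shPAX6 replicate 1 (adjusted p = 0.035). The log2 fold change of PFKL was smaller after the GC correction (-0.28, limma, adjusted p = 0.41) and with median centring (-0.33, adjusted p = 0.41). PFKP, the platelet isozyme, was at 196, 201 and 197 FPKM in shCON and 232, 239 and 273 FPKM in shPAX6 (log2 fold change 0.32, SE 0.13, limma, adjusted p = 0.23). PFKP over PFKL was 2.98, 3.03 and 2.65 in shCON and 4.65, 5.16 and 5.58 in shPAX6 (log2 difference 0.83). With PFKP higher and PFKL lower in every shPAX6 library, this ratio could not overlap between groups, so it is no further test. The log2 difference was 0.70 after the GC correction and 0.76 to 0.89 with each library left out. PFKP made up 64.7% to 66.9% of the PFKL, PFKM and PFKP level in shCON and 74.9% to 77.4% in shPAX6. HK1, hexokinase 1, was at 77.0, 77.6 and 78.0 FPKM in shCON and 47.6, 62.9 and 63.4 FPKM in shPAX6 (log2 fold change -0.43, limma, adjusted p = 0.19), and PKM, pyruvate kinase, differed by 0.25 on the log2 scale (limma, adjusted p = 0.48).

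**Figure D4:**
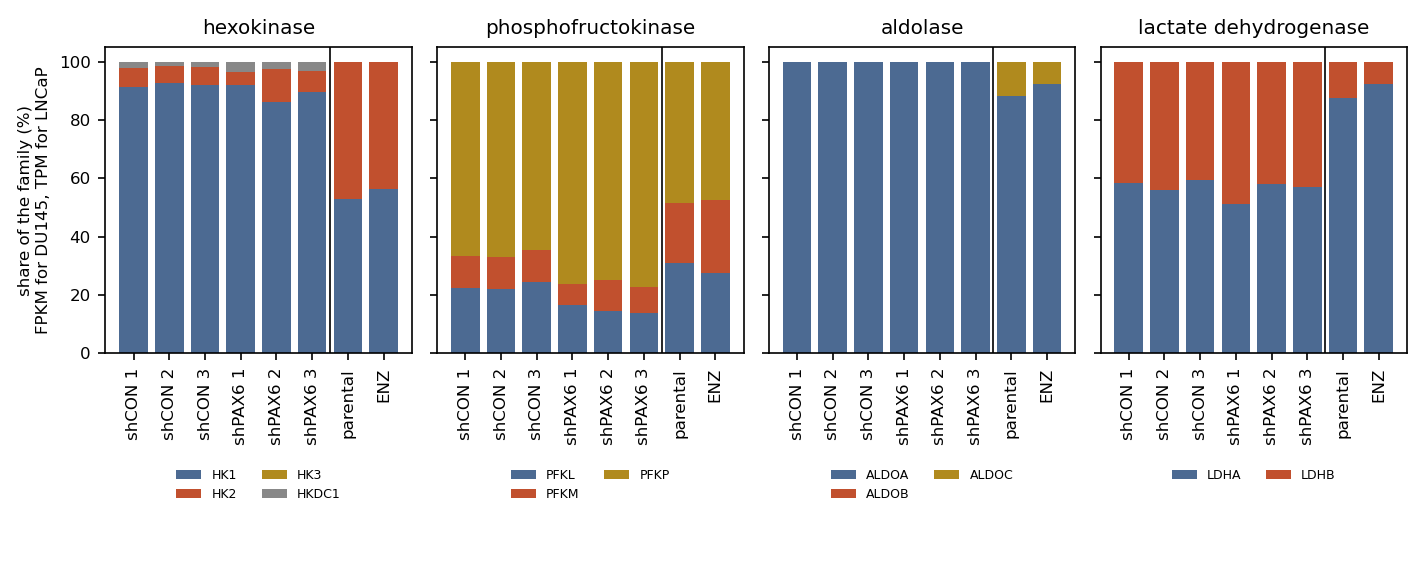
Share (%) of each isozyme in the summed level of its family within each library, from FPKM for the 6 DU145 libraries and TPM for the 2 LNCaP libraries. PFKP takes 74.9% to 77.4% of phosphofructokinase in shPAX6 against 64.7% to 66.9% in shCON, and HK2 and ALDOC are larger parts of their families in LNCaP than in DU145.

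Further genes of the pathway, in 5 lists, showed no called change in DU145: of 86 tested genes 0 were called by limma and 24 had an unadjusted p under 0.05, where 18.3% of all features did. With limma's array weights 37 of them were called, where 33.7% of all features were. Of 37 tested further HIF targets, 16 were higher and 21 lower by value, from BHLHE40, a repressor of transcription (log2 fold change -0.81, limma, adjusted p = 0.078), to DDIT3, a stress factor (0.82, adjusted p = 0.19). Of 14 HIF regulators the extremes were ARNT2, a paralogue of ARNT (-0.96, limma, adjusted p = 0.20), and TCEB1, elongin C of the ubiquitin ligase that degrades HIF (0.45, adjusted p = 0.24). The receptor for adrenomedullin was hardly present: its core CALCRL did not exceed 0.0277 FPKM, RAMP2 did not exceed 0.356 FPKM and RAMP3 was at 0. The related RAMP1 was at 1.41, 3.44 and 2.31 FPKM in shCON and 1.53, 0.859 and 1.12 FPKM in shPAX6 (log2 fold change -0.92, limma, adjusted p = 0.24). Of 16 further glycolysis genes the extremes were SLC2A10, a glucose transporter (-0.85, adjusted p = 0.28), and HKDC1, a hexokinase (0.36, limma, adjusted p = 0.49). Of 17 genes of pyruvate and lactate fate they were PDP2, a pyruvate dehydrogenase phosphatase (-1.05, adjusted p = 0.23), and MPC2, a subunit of the mitochondrial pyruvate carrier (0.42, limma, adjusted p = 0.19).

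In LNCaP, 1 library was available per arm, so that a difference has no replicate check and no test was made. The methods speak of replicates for each cell line, and whether a deposited LNCaP column holds 1 culture or several is not given in the sources used here. The parental library held 20468001 counts and the LNCaP-ENZ library 17945722. Log2 ratios are of CPM, counts scaled to the library total, plus 0.1, and the 95% intervals (exact Clopper-Pearson) cover counting error only. In LNCaP-ENZ the counts of HIF1A, LOX, ADM and SLC16A3 were over 2-fold lower than in the parental library, CA9 was over 2-fold higher, and EPAS1 was nearly level. These 5 of 37 members were past 2-fold (1 higher, 4 lower), where 22.3% of the 27475 genes with a count were (7.61% higher, 14.7% lower). Among genes with a mean of at least 1 CPM 4 of 36 members were past 2-fold, against 11.4% of all genes (1.84% higher, 9.57% lower). By the ratio alone 21 of 37 members were lower, against 59.6% of all genes (62.3% of those with a mean of at least 1 CPM), and the intervals of 19 members lay under 0, of 8 above 0 and of 10 across it. The median of the members was -0.14 and that of all genes -0.18. Markers of other cells were few in both arms but not level: the 5 endothelial markers summed to 348 and 46 counts in parental and LNCaP-ENZ cells (345 and 27 of them VWF, with CDH5 and TEK at 0), the 5 fibroblast markers to 492 and 288 (COL1A2, PDGFRA and DCN at 0) and the 5 leukocyte markers to 40 and 63. The part of these in the values of the members was not tested. The sign of the members' median depended on the scaling, since it was 0.0035 with TMM factors.

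HIF1A had 1596 counts in parental and 428 in LNCaP-ENZ cells, 78.0 and 23.8 CPM, which was 3.26-fold lower (log2 ratio -1.71, 95% interval -1.87 to -1.55). EPAS1 had 675 and 613 counts (log2 ratio 0.05, 95% interval -0.11 to 0.21), so that HIF1A over EPAS1, by TPM, was 2.78 in parental and 0.821 in LNCaP-ENZ cells. The ratio was thus lower in LNCaP-ENZ, with HIF1A as the subunit that differed, whereas it was higher after PAX6 knockdown in DU145, with EPAS1 as the subunit that differed more. ARNT had 2639 and 1712 counts (log2 ratio -0.43), EGLN1 1158 and 604 (-0.75) and EGLN3 1544 and 1613 (0.25).

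ADM was scarce in LNCaP, with 24 counts in parental and 5 in LNCaP-ENZ cells (log2 ratio -1.75, 95% interval -3.82 to -0.65), and with a pseudocount of 1 CPM the ratio was -0.76. LOX had 156 and 32 counts (log2 ratio -2.04, 95% interval -2.69 to -1.54). VEGFA was well counted, with 2282 and 1756 counts (log2 ratio -0.19, 95% interval -0.28 to -0.10), and ANGPTL4 was not, with 66 and 68 counts (0.23, 95% interval -0.28 to 0.74). P4HA1 had 1824 and 1336 counts (-0.26) and P4HA2 335 in both libraries (0.19).

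CA9, unlike the other members past 2-fold, was higher in LNCaP-ENZ, with 208 and 380 counts (log2 ratio 1.05, 95% interval 0.81 to 1.31), and it fell just short of 2-fold by TPM (0.96) and with a pseudocount of 1 CPM (0.99). CA12 had 1519 and 1396 counts (0.07). SLC16A3 had 41 and 16 counts (log2 ratio -1.08, 95% interval -2.10 to -0.30), and with TMM factors its ratio was -0.95. The mitophagy receptors were lower, with little counting error: BNIP3 had 7306 and 3669 counts (log2 ratio -0.80, 95% interval -0.86 to -0.75) and BNIP3L 4121 and 2336 (-0.63, 95% interval -0.70 to -0.56). For BNIP3, 44 named pseudogenes are annotated, so its reads may be shared in both lines. ANKRD37 had 85 and 64 counts (-0.21). PDK1 had 2045 and 1171 counts (log2 ratio -0.61, 95% interval -0.72 to -0.51) and PFKFB4 3061 and 1972 (-0.44), whereas PFKFB3 had 1175 and 1057 (0.04). SLC2A1 had 2828 and 3134 counts (0.34) and SLC2A3 26 and 14 (-0.64).

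The 15 glycolytic enzymes held no member past 2-fold in LNCaP, with 8 higher, 7 lower and a median of 0.01. On the higher side were LDHA, with 21906 and 25046 counts (log2 ratio 0.38), GPI, glucose-6-phosphate isomerase, with 41152 and 46905 (0.38), and PKM, with 36971 and 40052 (0.31). On the lower side were ALDOC, the brain aldolase, with 5237 and 2917 counts (log2 ratio -0.65, 95% interval -0.72 to -0.59), ENO2 with 170 and 113 (-0.39) and PGK1 with 25133 and 17803 (-0.31). GAPDH, with 135294 and 115985 counts, was level (-0.03), as were ALDOA (0.01), ENO1 (0.04) and PGAM1 (0.03). TPI1 stood at 0.14, HK1 at 0.06, HK2 at -0.14, PFKP at -0.12 and PFKL at -0.24. Counting error was small for these genes except ENO2 (95% interval -0.76 to -0.05), and the spread between cultures is unknown.

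**Figure D5:**
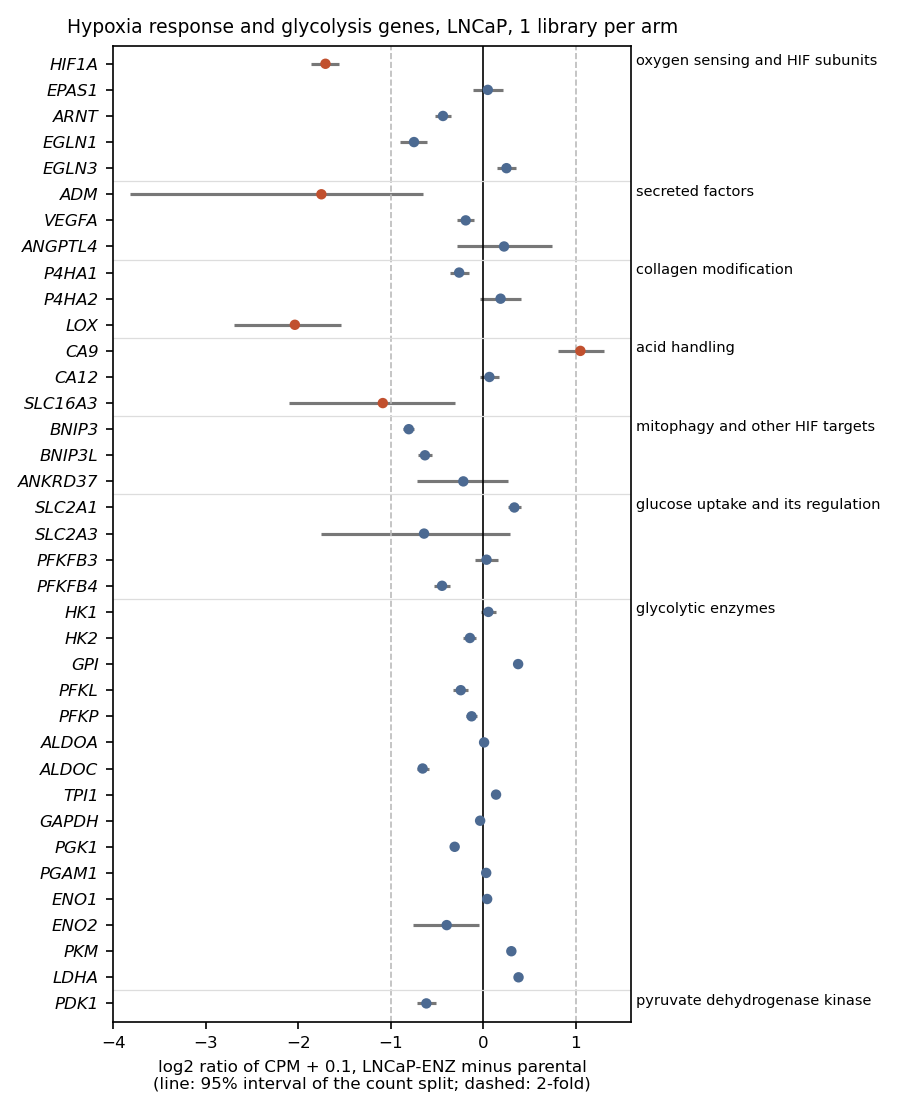
Log2 ratio (LNCaP-ENZ minus parental, CPM + 0.1) of the 37 hypoxia response and glycolysis genes, 1 library an arm, with 95% intervals of the count split as lines. The 5 genes past 2-fold, in red, are HIF1A, ADM, LOX, CA9 and SLC16A3, and the glycolytic enzymes lie between -0.65 and 0.38.

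Of 107 further pathway genes with counts in LNCaP, 12 were past 2-fold (3 higher, 9 lower), where 22.3% of all genes with a count were. At a mean of at least 1 CPM 4 of 86 further genes were past 2-fold, against 11.4% of all genes. The widest was IGFBP3, a binding protein of insulin-like growth factors, with 157 and 4596 counts (log2 ratio 5.04, 95% interval 4.83 to 5.30), while the lowest further HIF target with a mean of at least 5 CPM was TMEM45A, a transmembrane protein, with 569 and 199 counts (-1.32). Among HIF regulators the extremes were CUL2, the cullin of the HIF ubiquitin ligase (log2 ratio -0.76), and RBX1, its RING subunit (0.45). ACKR3, a receptor that takes up adrenomedullin, had 10793 and 5430 counts (-0.80). In the glycolysis list the extremes were SLC2A4, the insulin-responsive glucose transporter (-0.98), and PGAM5 (0.58), which is a mitochondrial phosphatase and not a glycolytic enzyme. For pyruvate fate they were PDP1, a pyruvate dehydrogenase phosphatase, with 525 and 215 counts (-1.09), and PDHB, a pyruvate dehydrogenase subunit (0.44).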

How the data were processed

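RNA-seq libraries were 6 from DU145 and 2 from LNCaP, and 6 ATAC-seq samples were not used here. For DU145 the authors deposited normalized values of 24199 features, which were treated as FPKM (the header names no unit), so that the DU145 depth is unknown. For LNCaP the deposited table gave read counts and TPM per gene. The methods name HISAT2, StringTie and GRCh37, and the submitters' processing notes also list STAR. Whether counting used strand is not given in the sources used here. Small noncoding RNAs, 5 in number, took 18.1% and 19.0% of LNCaP counts.

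DU145 values were tested with limma 3.58.1 (R 4.3.3, eBayes with trend, two-sided, Benjamini-Hochberg over all tested features) after adding 0.1 FPKM and taking log2, which understates fold changes of low genes. Features averaging under 0.5 FPKM were left out. LNCaP counts were scaled to the library total. edgeR 4.0.16 and DESeq2 1.42.0 gave only alternative scaling factors for LNCaP, since 1 library an arm allows no test. Statistical code was tested on simulated data. Members and gene lists were chosen with earlier results of these data known. All members are named, with PAX6 and, of each further list, called genes or else the largest change each way (in LNCaP at a mean of at least 5 CPM). Likeness of patterns was not ranked, since the libraries fall into 2 groups. Some marker genes are not reported here.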

Additional observations from a re-analysis of the deposited data

How the results depend on the processing

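With all libraries, the call of ADM was kept under 11 of 12 alternatives and lost with the replicate block (adjusted p = 0.063), and that of LOX was kept under 9 of 12, lost with no filter (0.072), with the block (0.19) and with the block and GC correction (0.11). With 3 libraries a group, leaving out 1 library could lose either call. ADM was lost without shCON 1 or 3 and kept without shCON 2 (limma, adjusted p = 0.040). With a shCON library left out, 0 to 5 of all features were called. For LNCaP the spread between cultures is unknown. Same-numbered DU145 libraries did not deviate together (correlations of -0.17, -0.37 and 0.05), so the numbers were not taken to pair them. With the replicate block 0 members and 0 features were called, and with the block and the GC correction 1 member and 5 features. The count of called members, 2 of 35, was 1 with no filter on low values, 4 with quantile normalization, 21 with array weights and 0 to 5 with a library left out. The count of called features, 163 (24 higher, 139 lower), was 108 with no filter, 100 with median centring (28 higher, 72 lower), 4569 with array weights (1544 higher, 3025 lower) and 0 to 920 with a library left out. It was 236 with quantile normalization (74 higher, 162 lower) and 147 with the GC correction (42 higher, 105 lower). Of the further pathway genes 1 was called with quantile normalization, 1 with median centring, 37 with array weights and 0 to 7 with a library left out. The members' median of 0.08 was -0.031, 0.25 and 0.15 with quantile normalization, median centring and array weights, and 0.022 to 0.16 with a library left out.

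Direction turned for members that were not called. With quantile normalization GPI was -0.14, ALDOA -0.031, PGAM1 -0.18, ENO1 -0.14 and LDHA -0.057. With median centring HIF1A was 0.041, P4HA2 0.015, SLC16A3 0.043, SLC2A1 0.082 and PGK1 0.16. With array weights SLC2A1 was 0.078, PFKFB3 0.021 and PGK1 0.15, and SLC16A3 was 0.073 with the GC correction, with or without the block. With a library left out HIF1A ranged from -0.54 to 0.31, BNIP3 from -0.017 to 0.11, SLC2A1 from -0.19 to 0.082, PFKFB3 from -0.51 to 0.24, HK2 from -0.61 to 0.27, GPI from -0.022 to 0.062, ALDOA from -0.027 to 0.39, ALDOC from -0.044 to 0.18, PGK1 from -0.12 to 0.18, PGAM1 from -0.016 to 0.16 and ENO1 from -0.024 to 0.13. The causes were not tested. The ratios of HIF1A to EPAS1 and of PFKP to PFKL were tried under other settings after seeing the data.

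In LNCaP, with pseudocounts of 1 and 0.01 CPM, 1118 and 10324 genes and 3 and 21 further pathway genes were past 2-fold, in place of 6120 and 12, and 2 members were at 1 CPM. Among genes with a mean of at least 1 CPM the counts were 1684 and 4. The members' median of -0.14 was 0.0035 with TMM factors, 0.030 with DESeq2 size factors, 0.011 with the median of genes set to 0 and -0.23 by TPM.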

Other observations

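Isozyme use differed in level between the lines, as read within each table, which were normalized separately. HK2 made up 47.0% and 43.6% of the hexokinase level in parental LNCaP and LNCaP-ENZ cells and 4.47% to 11.1% in the DU145 libraries. ALDOC made up 11.8% and 7.77% of the aldolase level in LNCaP and at most 0.0879% in DU145. LDHB, the lactate dehydrogenase subunit of oxidative tissue, made up 12.5% and 7.66% of the LDHA and LDHB level in LNCaP and 40.6% to 48.7% in DU145. SLC16A3 was at rank 9 of the 37 members by level in shCON and at rank 35 in parental LNCaP, and ALDOC was at ranks 34 and 11. No test was made between the lines.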
